A study of Rattus norvegicus with 21 samples.

Results

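Expression in the dentate gyrus was compared between 9 rats that received 1 of 3 antidepressants at 10 mg/kg during chronic stress and 3 rats that went through the stress without a drug. The 9 drug animals were all those whose labels name fluoxetine, imipramine or tianeptine, 3 each, and the drugs were pooled with equal weight to look for the shift that they share. They are 9 of the 18 animals of the series. All animals were male wild-type Wistar rats of 2 months. The fluoxetine, imipramine and tianeptine groups had 6 weeks of unpredictable chronic mild stress with a daily intraperitoneal injection in the last 2 weeks, fluoxetine dissolved in pure water and the other 2 drugs in saline. The stress group had the same 6 weeks and no drug, and 3 untreated control animals without stress, each measured on 2 arrays that were averaged, gave a further point of comparison. The labels do not say whether stress or control animals were injected, so drug and injection cannot be told apart. The question is which genes the 3 drugs move together relative to stress alone.

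The dentate gyrus is the entry field of the hippocampus, where granule neurons receive cortical input and where new neurons are born in adult life. Chronic mild stress raises glucocorticoids repeatedly and is widely used as a rodent model of depression-like behaviour. Fluoxetine inhibits the serotonin transporter, imipramine is a tricyclic that blocks serotonin and noradrenaline reuptake, and tianeptine is an atypical tricyclic that does not act as a reuptake inhibitor of that kind. Firing, growth factors and glucocorticoids all induce fast-responding genes in granule neurons, and several of these genes encode phosphatases that switch off the MAP kinases.

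Values are log2 expression (RMA) of 10804 genes, so a difference of 1 is a doubling, and ± after a difference is its standard error. Medians over these genes ran between 9.22 and 9.27 in the drug animals, and were 9.28, 9.27 and 9.35 in stress 1, 2 and 3. Markers of the labelled tissue were high: Prox1, the transcription factor of granule neurons, averaged 11.59 ± 0.04 in drug animals (SD, n = 9) and 11.50 ± 0.14 in stress animals (SD, n = 3), and C1ql3, a secreted synaptic protein of these cells, 12.02 ± 0.06 in drug animals and 11.87 ± 0.04 in stress animals. Of the stress animals, 2 stood apart. Ttr, which encodes transthyretin, the main product of the choroid plexus, ran from 6.94 to 8.09 in the drug animals, and was 11.77 in stress 1, 7.13 in stress 2 and 8.27 in stress 3. Htr2c, the serotonin receptor gene strong in choroid plexus and parts of the hippocampus, ran from 7.09 to 7.61 in the drug animals, and was 7.93, 7.14 and 9.90 in stress 1, 2 and 3.

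Pooled, the drugs differed from stress at an adjusted p under 0.05 in 1 of the 10804 genes (0.00926%), and that gene, Dusp1, fell. Dusp1 encodes a phosphatase that inactivates MAP kinases and is induced by both neuronal activity and glucocorticoids. Its level was 9.05, 9.13 and 9.47 in the fluoxetine animals, 9.09, 9.11 and 9.32 in the imipramine animals and 9.12, 9.01 and 9.16 in the tianeptine animals, against 9.86, 9.66 and 9.84 in the stress animals. Every drug animal lay below every stress animal. The pooled difference was −0.62 ± 0.08 (SE, 95% interval −0.80 to −0.44), a 1.54-fold lower level, with an adjusted p of 0.0373 in limma. Taken singly, the differences from stress were −0.57 for fluoxetine, −0.61 for imipramine and −0.69 for tianeptine. These 3 differences share the same 3 stress animals. The drugs themselves were not distinguished at Dusp1 (limma F test, adjusted p = 0.839). Control animals had 9.36, 9.26 and 9.25, a range that the drug animals overlapped, with a difference from control of −0.13 ± 0.08 (adjusted p = 0.817 in limma). The repeat array minus the first array was −0.33, −0.11 and −0.13 in control 1, 2 and 3, so this difference depends on the array used. In tissue RNA, fewer cells of a type and less RNA per cell cannot be told apart. The size lay between −0.688 and −0.585 with any 1 animal left out, but the adjusted p then ran from 0.00104 to 0.323 and exceeded 0.05 when any 1 of 10 of the 12 animals was missing, each of the 3 stress animals among them. The adjusted p was 0.196 without the imipramine animals, 0.567 without the tianeptine animals and 0.23 with a choroid plexus marker score in the fit, while the difference itself was −0.629, −0.591 and −0.579 in these fits. Without the fluoxetine animals the difference was −0.651, with an adjusted p of 0.00627 in limma.

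The stretch before the start of Dusp1 is shown because the gene carries the 1 call, with those of Nr4a1 and Gadd45b, fast-responding genes whose differences are given further on. Each line is the 250 bases before the gene's start from RefSeq, build GRCr8, 5′ to 3′. Capitals mark TGACG and its reverse complement CGTCA, the core site of the cyclic AMP response element to which CREB binds, and TGACGTCA is the whole element. The positions are chr10:17184603-17184852 for Dusp1 and chr7:134259888-134260137 for Nr4a1, both on the plus strand, and chr7:9430719-9430968 on the minus strand for Gadd45b.
Dusp1: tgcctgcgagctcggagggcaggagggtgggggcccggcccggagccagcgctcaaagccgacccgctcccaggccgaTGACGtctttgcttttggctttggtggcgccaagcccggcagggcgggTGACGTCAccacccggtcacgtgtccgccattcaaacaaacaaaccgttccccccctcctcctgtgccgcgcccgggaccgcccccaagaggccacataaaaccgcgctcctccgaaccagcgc
Nr4a1: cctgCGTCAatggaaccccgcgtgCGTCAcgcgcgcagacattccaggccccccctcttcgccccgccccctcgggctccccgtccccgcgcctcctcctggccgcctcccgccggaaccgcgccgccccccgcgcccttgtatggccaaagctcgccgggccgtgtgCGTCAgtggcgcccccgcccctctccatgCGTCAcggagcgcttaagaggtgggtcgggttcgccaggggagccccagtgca
Gadd45b: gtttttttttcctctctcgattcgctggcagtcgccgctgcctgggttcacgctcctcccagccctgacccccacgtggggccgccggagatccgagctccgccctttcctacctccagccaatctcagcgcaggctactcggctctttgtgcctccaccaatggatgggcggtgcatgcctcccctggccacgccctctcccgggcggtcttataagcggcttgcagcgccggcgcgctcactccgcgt
The Dusp1 stretch holds 3 matches to the core site, of which an overlapping pair forms the whole element, starting 124 bases before the gene. Nr4a1 holds 4 core sites and no whole element, and Gadd45b neither. Among 33469 such stretches in the table, 18.2% hold a core site and 1.59% a whole element. Among the 37 stretches of the list of activity-regulated genes, 19 hold a core site (51.4%) and 5 a whole element (13.5%). A gene can enter with several stretches, as Crem does among these 5. These are matches of letters, not measured binding.

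**Figure D1:**
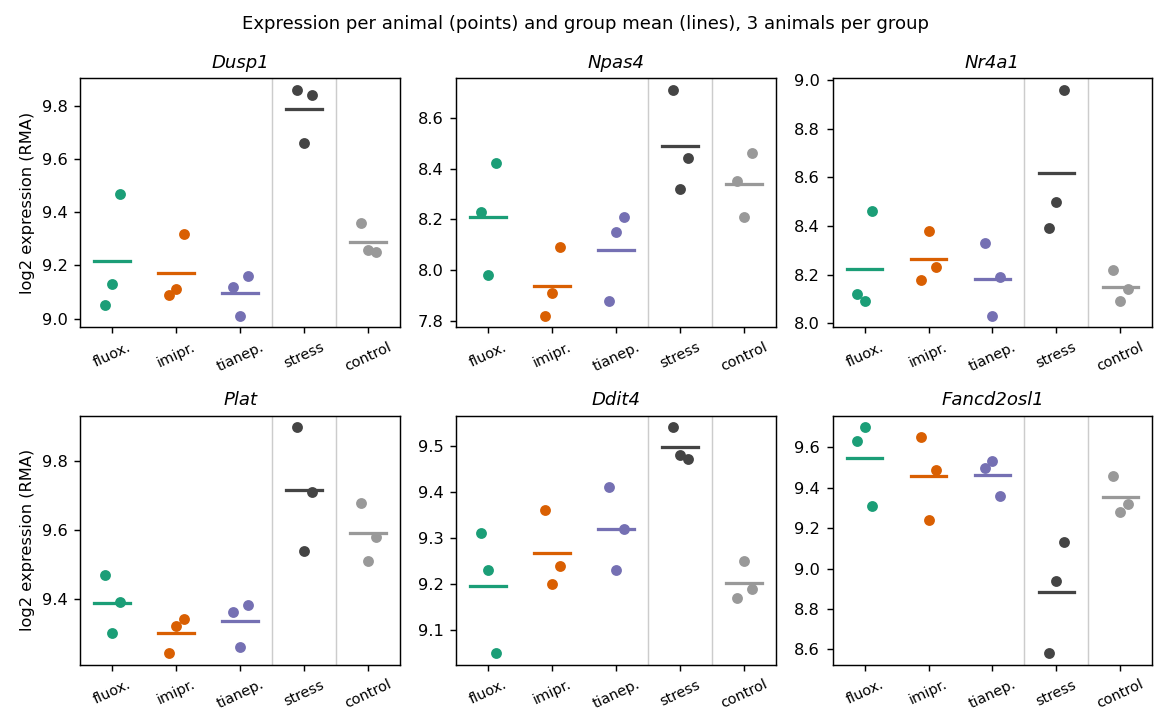
Log2 expression (RMA) of 6 genes in each animal, from left the fluoxetine, imipramine, tianeptine, stress and control groups, 3 animals each. Points are animals and lines group means. Dusp1 lies between 9.01 and 9.47 in the drug animals and at 9.66 or more in the stress animals, and Fancd2osl1 lies at 9.24 or more in the drug animals and at 9.13 or less in the stress animals.

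Below Dusp1, no gene came near the threshold, the next adjusted p being 0.344 in limma. At an unadjusted p under 0.05 there were 865 genes (8.01%), 544 of them lower with the drugs (5.04%) and 321 higher (2.97%). The 9 drug animals and the 3 stress animals did not overlap in 139 genes (1.29%), 73 lower (0.676%) and 66 higher (0.611%). The median difference over all genes was −0.016, and 58.5% of genes lay below 0. With the arrays shifted to equal medians, the median over all genes was 0.028. The genes described next were named by a rule, which took in each direction the 10 non-overlapping genes of smallest p. Their lack of overlap is the rule's doing and supports nothing further.

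**Figure D2:**
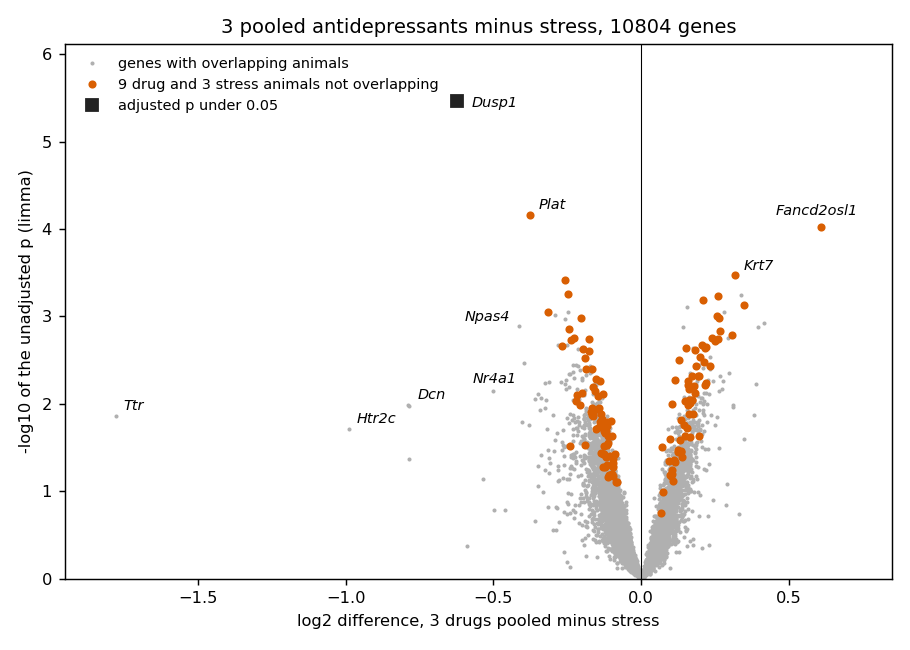
Pooled log2 difference of the 3 drugs minus stress on the horizontal axis against −log10 of the unadjusted limma p, for 10804 genes. The black square is Dusp1 (−0.62), the 1 gene with an adjusted p under 0.05, and orange points are the 139 genes in which the 9 drug and 3 stress animals do not overlap. Ttr, Htr2c and Dcn have larger differences and larger p-values.

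Plat, which encodes tissue plasminogen activator, the protease that cleaves plasminogen and promotes maturation of BDNF, was 9.47, 9.30 and 9.39 with fluoxetine, 9.24, 9.32 and 9.34 with imipramine and 9.36, 9.26 and 9.38 with tianeptine. The stress animals had 9.90, 9.54 and 9.71. The difference was −0.38 ± 0.07 (SE) with an adjusted p of 0.344. The control animals, at 9.68, 9.51 and 9.58, also lay above all 9 drug animals, a difference of −0.25 ± 0.07 from control. Plat is thus a gene in which the drug animals stood below both other groups, though neither difference passed the test (adjusted p = 0.552 against control).

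Gadd45b, an activity-induced gene linked to DNA demethylation, ranged from 8.60 to 8.90 in the drug animals with a median of 8.78, against 8.96, 8.96 and 9.08 in the stress animals. Its difference from stress was −0.24 ± 0.06 and its difference from control −0.21 ± 0.06. Ptpn1, the tyrosine phosphatase that dampens insulin and leptin signalling, had a median of 10.01 in the drug animals (9.94 to 10.09) and 10.12, 10.32 and 10.21 in the stress animals, a difference of −0.20 ± 0.05 from stress and −0.18 ± 0.05 from control. Plat, Gadd45b and Ptpn1 were the 3 of the 10 lower genes whose drug animals did not overlap the controls either, while none of the 10 higher genes lay above all controls. Over all genes, 1.28% did not overlap in that comparison. The 10 lower genes were chosen because the same drug animals are low, so their count is not to be read against that share.

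In Ddit4, a stress- and glucocorticoid-induced inhibitor of mTOR signalling, the drug animals lay near the controls instead. Its level was 9.31, 9.23 and 9.05 with fluoxetine, 9.36, 9.20 and 9.24 with imipramine and 9.41, 9.23 and 9.32 with tianeptine, against 9.54, 9.48 and 9.47 in the stress animals. The control animals had 9.17, 9.25 and 9.19. The difference was −0.24 ± 0.06 from stress and 0.06 ± 0.06 from control. Among lower genes the rule takes those whose stress animals lie above all drug animals. Drug animals near the control level are favoured by that choice, here and in the genes that follow. Rab40c, which encodes a substrate adaptor of a ubiquitin ligase, was lower than stress by −0.26 ± 0.06 and lay at the control level (−0.01 ± 0.05), and Aifm3, a relative of apoptosis-inducing factor, differed by −0.23 ± 0.06 from stress and 0.10 ± 0.06 from control. Clec2g, a C-type lectin, differed from stress by −0.32 ± 0.08 and Or11h23b, an olfactory receptor gene, by −0.25 ± 0.06. All of these had adjusted p-values of 0.59 in limma.

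On the higher side Fancd2osl1 led. Its level was 9.63, 9.70 and 9.31 with fluoxetine, 9.65, 9.24 and 9.49 with imipramine and 9.50, 9.53 and 9.36 with tianeptine, against 8.58, 8.94 and 9.13 in the stress animals. The SD was 0.16 in the 9 drug animals and 0.28 in the 3 stress animals. The difference was 0.61 ± 0.11 (adjusted p = 0.344) from stress and 0.14 ± 0.11 from the controls, which had 9.46, 9.28 and 9.32. Lrfn5, a synaptic adhesion protein, ran from 11.18 to 11.33 with a median of 11.24 in drug animals and 11.16, 10.99 and 10.98 in stress animals, a difference of 0.21 ± 0.05. Rpf2, a factor of ribosome assembly, differed by 0.26 ± 0.06.

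The remaining higher genes were dim ones. Krt7, an epithelial keratin, ranged from 7.23 to 7.47 with the drugs and was 6.86, 7.17 and 7.09 in stress, a difference of 0.32 ± 0.07, and Pkp3, a desmosome component, differed by 0.26 ± 0.06. Krt82, Elf4, Lpar3, Ly6g6e and the vomeronasal receptor gene Vom2r65 differed by 0.24 to 0.35. Of the 10 named higher genes, 7 had a mean within 1 log2 unit of the low-signal limit of 7.165, against 1 of the 10 named lower genes and 23.6% of all genes. Among all genes without overlap, 37 of the 66 higher and 9 of the 73 lower ones were that dim. Olfactory receptor genes, taken as a list of dim probe sets, had a median difference of 0.059 against −0.016 for all genes, with 50 of 64 above the median of all genes. The part of signal level in these differences was not tested.

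**Figure D3:**
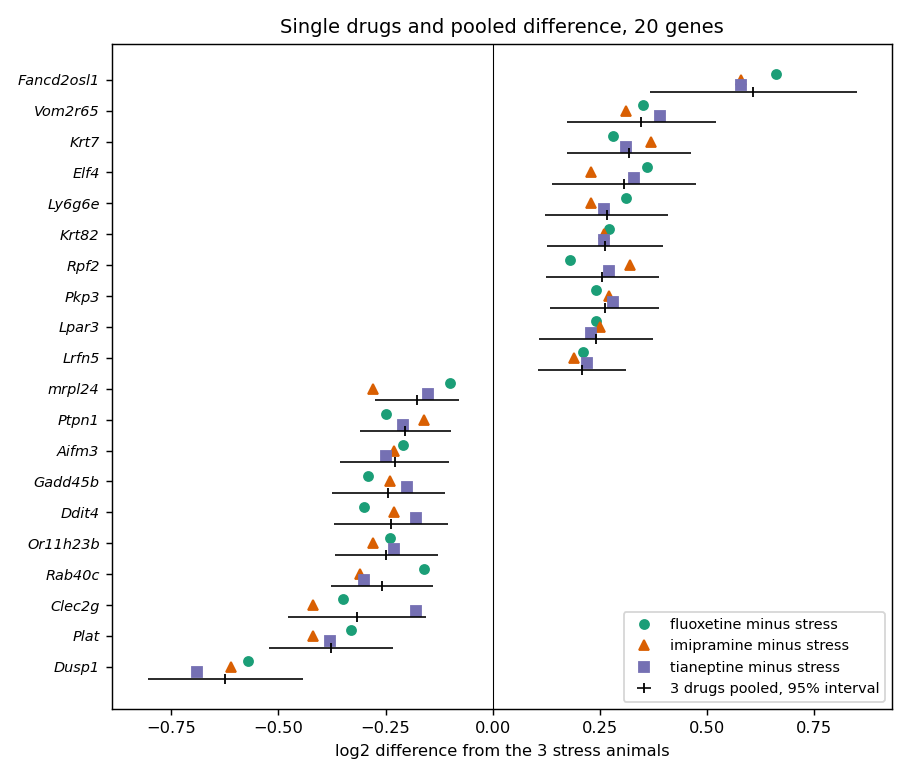
Log2 differences from the 3 stress animals for the 20 named genes, with 1 coloured marker per drug and the pooled difference with its 95% interval in black. In all 20 genes the 3 drugs lie on the same side, which follows from the rule that chose them and from the shared stress animals, and the single-drug values for Dusp1 lie between −0.69 and −0.57.

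Of 36 tested genes that respond fast to neuronal activity, out of 41 listed, 22 were below and 14 above the median of all genes, Dusp1 among the 22, and their median difference was −0.037 against −0.016 for all genes. Unadjusted p-values under 0.05 were found for 10 lower members and 1 higher one, against 5.04% lower and 2.97% higher over all genes. Dusp1 was the 1 member called. The drug animals did not overlap the stress animals in 3 members, Dusp1, Gadd45b and the transcription factor gene Klf4 (−0.13 ± 0.06, named after its values were seen), against 0.676% of all genes lower without overlap. Klf4 is dim, with means of 7.56 in drug and 7.69 in stress animals.

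Npas4, a transcription factor induced by calcium influx in neurons, was 8.23, 7.98 and 8.42 with fluoxetine, 7.82, 7.91 and 8.09 with imipramine and 7.88, 8.15 and 8.21 with tianeptine, against 8.71, 8.32 and 8.44 in stress. Only fluoxetine 3 reached into the stress range. The difference was −0.41 ± 0.10 (SE, adjusted p = 0.59), and −0.26 ± 0.10 from control. Nr4a1, an orphan nuclear receptor, ranged from 8.03 to 8.46 with the drugs with a median of 8.19, against 8.39, 8.50 and 8.96 in stress. Its difference was −0.40 ± 0.11 from stress and 0.07 ± 0.11 from control. Arc, which controls AMPA receptor removal at active synapses, ranged from 8.98 to 9.48 with the drugs and was 9.39, 9.52 and 9.78 in stress, a difference of −0.34 ± 0.11. In both Nr4a1 and Arc, stress 3 was the highest animal. The classical immediate early genes had smaller differences, which were −0.13 ± 0.05 for Junb, −0.11 ± 0.07 for Fos and −0.08 ± 0.08 for Egr1, each with overlapping animals. Fos, with means of 7.80 in drug and 7.90 in stress animals, lies within 1 log2 unit of the low-signal limit. Ptgs2, the inducible cyclooxygenase, was the 1 higher member at an unadjusted p under 0.05, with 0.16 ± 0.07.

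All 11 listed MAP kinase phosphatase genes were tested. Of these, 6 lay below and 5 above the median of all genes, so the family did not move as a block, and its median was −0.037. After Dusp1 came Dusp6, the cytoplasmic phosphatase of ERK, with −0.33 ± 0.10, and Dusp4, a nuclear one, with −0.23 ± 0.08. Dusp6 ranged from 8.71 to 9.04 with the drugs and was 8.90, 9.33 and 9.50 in stress, and only 3 drug animals lay below all stress animals. Dusp2, another nuclear member, had the opposite sign at 0.16 ± 0.06. Without stress 3 the median of the family relative to all genes was 0.03 instead of −0.02. The 26 genes of the MAP kinase cascade itself had a median of −0.002 and no member called, and Map2k7, a kinase upstream of JNK, had the smallest p at −0.15 ± 0.05.

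Genes that respond to glucocorticoids had 17 of 24 tested members below the median of all genes and a median difference of −0.052. Dusp1 and Ddit4 belong to this list too and were its 2 members without overlap, both lower, against 0.676% of all genes. Fkbp5, the receptor co-chaperone that limits glucocorticoid signalling, ranged from 9.49 to 10.21 with the drugs and was 10.07, 10.21 and 9.79 in stress, a difference of −0.11 ± 0.11. Sgk1, a glucocorticoid-induced kinase, differed from stress by −0.03 ± 0.06. The receptors and hormones of the stress axis lay on the other side, with 12 of 15 above the median of all genes and a median of 0.051. Nr3c2, the mineralocorticoid receptor, had 0.11 ± 0.05 and Avpr1b, a vasopressin receptor, 0.21 ± 0.08, while Fkbp4, the co-chaperone that favours receptor transport to the nucleus, had −0.22 ± 0.07. None of the 3 passed the test (adjusted p = 0.619 for each, limma).

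The direct targets of monoamines did not share a direction. Of 12 tested serotonin receptor and transporter genes, 5 lay below and 7 above the median of all genes. Htr2c had a difference of −0.99 ± 0.37, which was −0.20 without stress 3, and without that animal the list's median relative to all genes was 0.085 instead of 0.006. Htr1d had 0.21 ± 0.09 and Htr6 −0.22 ± 0.10. Among 21 genes of noradrenaline, dopamine and histamine signalling, Adra2c, an inhibitory noradrenaline receptor, had −0.24 ± 0.07 and Drd4, a dopamine receptor, 0.21 ± 0.06, with overlap in both. Htr1d (means of 7.79 in drug and 7.58 in stress animals) and Drd4 (7.52 and 7.31) lie within 1 log2 unit of the low-signal limit. Bdnf, the growth factor most often tied to antidepressants, ranged from 8.66 to 9.20 with the drugs with a median of 8.94, against 8.86, 8.72 and 8.72 in stress. Its difference was 0.16 ± 0.09 with a 95% interval from −0.04 to 0.36, so a rise of that size was not resolved with these animals. The 33 genes of neurotrophins, growth factors and their receptors had a median of −0.006, with none at an unadjusted p under 0.05.

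Lists of protein, lipid and energy metabolism had medians within 0.045 of that of all genes. Of 31 chaperones and regulators of the heat shock and unfolded protein responses, 19 lay below the median of all genes, with Hspa5, the chaperone of the endoplasmic reticulum, at −0.13 ± 0.05 and Dnajb1, a cofactor of HSP70, at −0.18 ± 0.06. Hspa5 had −0.28 with tianeptine, against −0.06 with fluoxetine and −0.06 with imipramine. Cholesterol synthesis had 17 of 19 below the median of all genes with a list median of −0.061, and its member of smallest p, Hsd17b7, had −0.16 ± 0.06. Relative to all genes the list's median was −0.045, but −0.021 without stress 3 and −0.023 with a further quantile normalisation. Ribosomal proteins had 46 of 70 below with a median of −0.036, and the 2 members of smallest p differed in sign, Rps14 at −0.16 ± 0.05 and Rpl13 at 0.26 ± 0.08. These 2 were uneven among the drugs. With fluoxetine, imipramine and tianeptine in turn, Rps14 had −0.03, −0.26 and −0.18 and Rpl13 0.31, 0.03 and 0.45. Among 71 subunits of oxidative phosphorylation, 41 were below. Atp5mk, a small ATP synthase subunit, was the 1 member without overlap, at 0.18 ± 0.05, against 1.29% of all genes without overlap. Ndufb8 of complex I had −0.26 ± 0.08. Of 35 ubiquitin-specific proteases, 12 lay below and 23 above. At an unadjusted p under 0.05 there were 2 higher members, Usp14 (0.19 ± 0.06) and Usp15 (0.16 ± 0.05), against 2.97% of all genes. The 2 lower ones were Usp20 (−0.16 ± 0.07) and Usp5 (−0.13 ± 0.05), against 5.04% of all genes. No member of these lists passed the test.

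**Figure D4:**
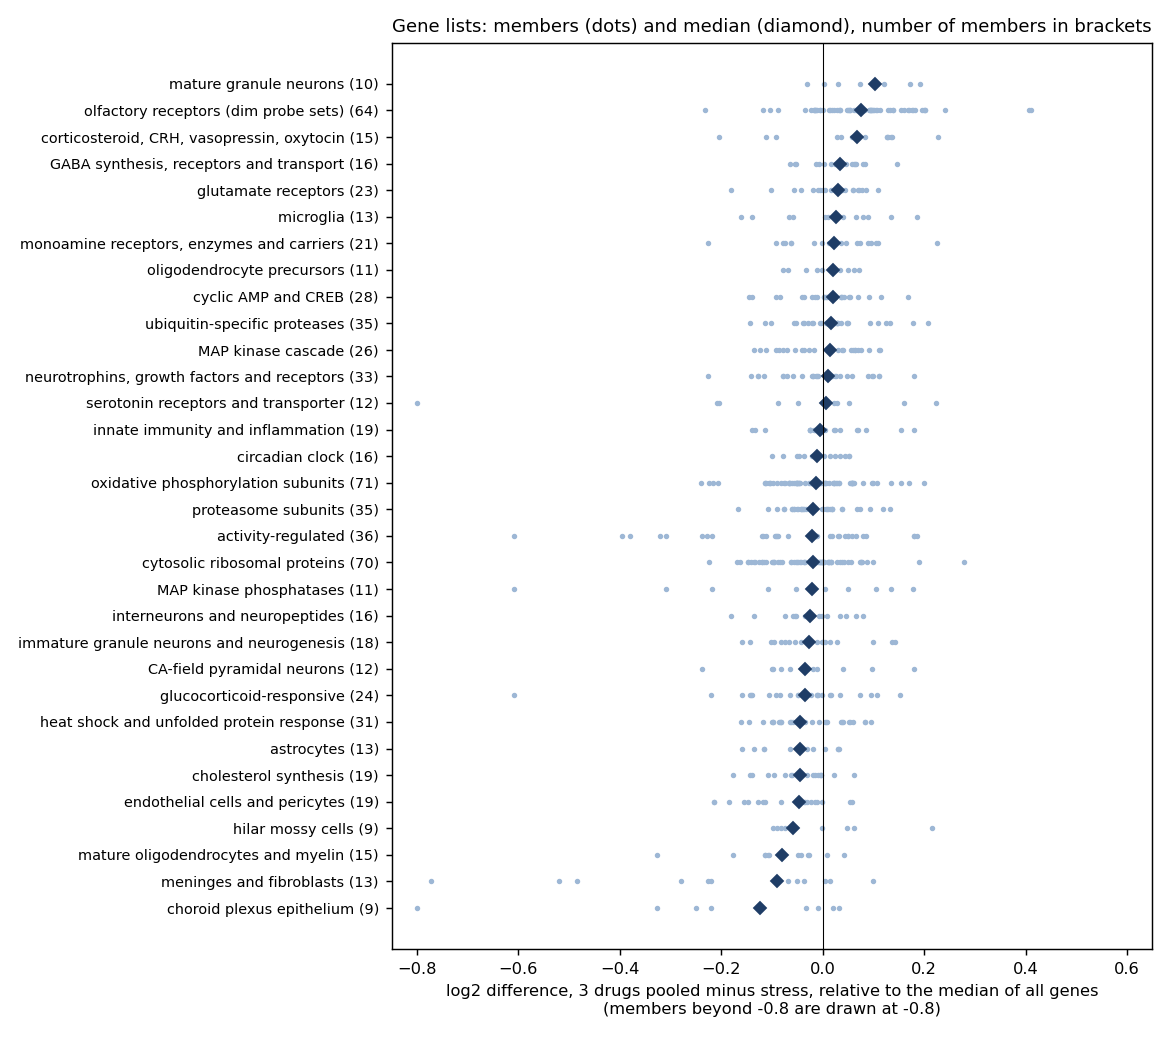
Pooled log2 difference of the 3 drugs minus stress relative to the median of all genes, for the members (dots) and the median (diamond) of each list with 5 or more tested members, the number in brackets. Medians run from −0.124 for choroid plexus epithelium to 0.104 for mature granule neurons, and Dusp1 is the far left dot of the activity-regulated, MAP kinase phosphatase and glucocorticoid-responsive rows.

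Markers of cell types differed most where single stress animals stood apart. Choroid plexus markers had 7 of 9 below the median of all genes and a median of −0.14. Their mean score ran from −0.19 to 0.02 in the drug animals, was 0.69 in stress 1, −0.06 in stress 2 and 0.08 in stress 3, and ran from −0.06 to 0.005 in the controls. Ttr differed by −1.78 ± 0.63 with an adjusted p of 0.619 and by −0.42 without stress 1, Kl, the klotho gene, by −0.27 ± 0.10, and Enpp2, the autotaxin gene, also expressed by oligodendrocytes, by −0.34 ± 0.12. Markers of meninges and fibroblasts had 10 of 13 below and a median of −0.11, and their score ran from −0.24 to 0.11 in the drug animals and was 0.50 in stress 1. Dcn, encoding decorin, had −0.79 ± 0.27, and −0.41 without stress 3, and Slc13a4, a sulfate carrier, −0.50 ± 0.16. Without stress 1 the median relative to all genes was 0.05 for meninges, instead of −0.09, and −0.05 for choroid plexus, instead of −0.12.

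Markers of endothelial cells and pericytes had 17 of 19 below the median of all genes and a median of −0.062. In this list no stress animal stood far off at Cldn5, the tight-junction protein of brain endothelium. Its level was 8.38 to 8.78 with the drugs with a median of 8.54, against 8.76, 8.86 and 8.82 in stress, a difference of −0.23 ± 0.07. Itm2a had −0.23 ± 0.07, and Abcb1a, the drug efflux pump of the blood-brain barrier, −0.17 ± 0.07. The list's median relative to all genes was −0.046, and −0.014 without stress 1, whose vascular score of 0.17 was the highest of the 3. With this score in the fit, Dusp1 had a difference of −0.52 and an adjusted p of 0.129 in limma. Mature oligodendrocyte genes had 13 of 15 below, with Cldn11 at −0.19 ± 0.08 and Cnp at −0.12 ± 0.06, and stress 1 again had the highest score, 0.20. Cnp had −0.0 with fluoxetine, −0.21 with imipramine and −0.16 with tianeptine. Astrocyte markers had 9 of 13 below. Aldh1l1 was the 1 member without overlap, at −0.13 ± 0.05, against 0.676% of all genes lower without overlap. The part of cell composition in the differences was not tested.

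Markers of mature granule neurons lay on the other side, with 9 of 10 above the median of all genes and a median of 0.088. C1ql3 had 0.16 ± 0.04, with 8 of 9 drug animals above all stress animals, Calb1, the calcium buffer of mature granule cells, 0.17 ± 0.07 and Prox1 0.09 ± 0.05. The list score was −0.14 in stress 3, and without that animal the median relative to all genes was 0.018 instead of 0.104. Stress 3 also had the highest scores for CA-field pyramidal neurons (0.182) and interneurons (0.201), against at most 0.045 and 0.1 in the drug animals. Without stress 3 the medians of these lists relative to all genes were 0.032 and 0.043, instead of −0.036 and −0.024. Markers of immature neurons and neurogenesis had 11 of 18 below and a median of −0.043. Dcx, the marker of newborn neurons, ranged from 9.05 to 9.59 with the drugs with a median of 9.20 and was 9.33, 9.05 and 9.62 in stress, a difference of −0.10 ± 0.11 that changed sign, to 0.05, without stress 3. No shift of this marker was resolved.

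The pooled contrast hides what the drugs do not share, so the 3 drug means were set against each other, with the stress animals entering only the estimate of the spread. The limma F test called 0 genes, with a smallest adjusted p of 0.223, and 1076 genes had an unadjusted p under 0.05 (9.96%). The smallest p belonged to C3, the central complement component. Its level was 8.48, 7.95 and 8.25 with fluoxetine, 8.18, 8.19 and 8.04 with imipramine and 9.31, 8.80 and 9.14 with tianeptine, against 8.24, 8.43 and 8.70 in stress. All 3 tianeptine animals were above the other drug animals and the stress animals, and pooling left a difference of 0.03 ± 0.12. The microglial markers had a median difference from stress of 0.155 with tianeptine, −0.13 with imipramine and 0.033 with fluoxetine, and their part in C3 was not tested.

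Nfkbia, the inhibitor of NF-κB and a glucocorticoid target, was 8.49, 8.41 and 8.45 with fluoxetine, 8.81, 8.71 and 8.88 with imipramine and 8.76, 8.65 and 8.66 with tianeptine, against 8.86, 8.82 and 8.73 in stress. The 3 fluoxetine animals were the lowest of the 12, 6 of the 9 drug animals lay below all stress animals, and the controls had 8.52, 8.58 and 8.49. The pooled difference was −0.16 ± 0.05. Mphosph8, a heterochromatin protein, differed from stress by −0.19 with fluoxetine, 0.17 with imipramine and −0.07 with tianeptine, and Stat5a by 0.13 with tianeptine and −0.24 with imipramine. Fnbp1l, a protein that bends membranes, differed by −0.32 with fluoxetine, 0.08 with imipramine and −0.34 with tianeptine. Sox11, a transcription factor of immature neurons, differed by −0.34 with fluoxetine and 0.07 with imipramine. Usp14 and Usp15 were highest with imipramine, at 0.33 and 0.31 above stress, against 0.06 and 0.05 with fluoxetine. None of these F tests passed adjustment (adjusted p = 0.482 for each of the genes in this paragraph).

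Set against the untreated controls, the 9 drug animals differed in 0 genes at an adjusted p under 0.05 (limma, smallest adjusted p = 0.0912), with 706 genes at an unadjusted p under 0.05 (6.53%). The smallest p-values belonged to Cntnap5b, a neurexin-family adhesion gene, and Rpl39, a ribosomal protein gene. Cntnap5b ranged from 8.18 to 8.51 with the drugs with a median of 8.38, against 8.65, 8.94 and 8.89 in the controls, a difference of −0.47 ± 0.07. The stress animals, at 8.36, 8.65 and 8.46, lay near the drug animals. Rpl39 had −0.27 ± 0.05 and H1f4, a linker histone, −0.23 ± 0.04, but with the first control arrays alone these were 0.10 and 0.03. Ptma, encoding prothymosin alpha, had −0.17 ± 0.04. On the higher side, Mt1, a metallothionein, had 0.27 ± 0.06, Sgk1 0.22 ± 0.05, Banf1, a chromatin-binding factor, 0.23 ± 0.05 and Ptgs2 0.29 ± 0.07. Sgk1 had a median of 10.93 with the drugs and was 10.93, 11.03 and 10.83 in stress and 10.69, 10.65 and 10.70 in the controls. In Sgk1 the drug animals thus lay near the stress level, unlike in Dusp1 and Ddit4. Sgk1 is listed here for its difference from control, while Dusp1 and Ddit4 were named for theirs from stress. That choice favours such a contrast, which supports nothing further. This comparison depends on the control arrays: the repeat arrays alone gave 460 calls and the first arrays alone 0.

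Probe sets without a single gene symbol were left out of the gene counts, and with them more was called. Of 19269 probe sets above the same limit, 26 were called (0.135%), 24 higher with the drugs (0.125%) and 2 lower (0.0104%). Dusp1 was 1 of the lower ones, and the other 25 have no gene symbol here. A block of 27 neighbouring probe set numbers, from 10722421 to 10722481, held 20 of the 24 that rose. The probe sets at both ends of the block are themselves called, so the block was marked out by the calls. All 27 were higher with the drugs. For the 20 this follows from that choice, and all 27 are set against the same stress animals, so their shared direction supports nothing further. Many of the 27 share their values, so the 20 amount to 10 distinct measurements, and 10 of the 20 are identical to each other.

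Among the 20 called probe sets of this block the differences from stress ran from 0.28 to 0.89, a fold of 1.22 to 1.85. Probe set 10722421 had 13.53, 13.56 and 13.44 with fluoxetine, 13.59, 13.50 and 13.59 with imipramine and 13.58, 13.65 and 13.64 with tianeptine, against 13.30, 13.28 and 13.26 in stress and 13.48, 13.44 and 13.38 in the controls. These levels of that probe set are near the top of the array's range, which ended at 14.4. These 20 were higher than stress by 0.23 to 0.74 with fluoxetine, by 0.28 to 0.83 with imipramine and by 0.34 to 1.08 with tianeptine. Against control the pooled differences were 0.13 to 0.43, with a smallest adjusted p of 0.251. The repeat array of a control animal differed from its first array by between −0.72 and 0.56 at these probe sets, sizes that reach into the range of the differences from stress. Outside the block the largest rise was 0.91 ± 0.10, at probe set 10749818, and the other probe set that fell, 10701332, had −0.73 ± 0.11. Without the tianeptine animals, or with the choroid plexus score in the fit, 0 probe sets were called, and without stress 3 there were 65.

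**Figure D5:**
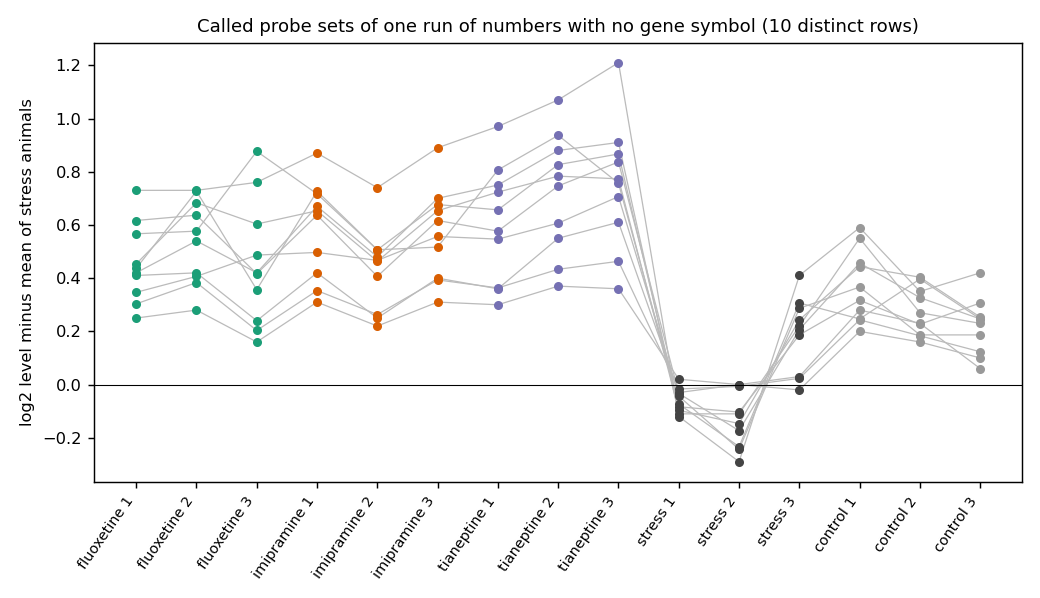
Log2 level minus the mean of the 3 stress animals, for the 10 distinct measurements among the 20 called probe sets of the block without gene symbols, in 15 animals with the drug groups on the left, then stress, then control. Grey lines join the values of 1 probe set. At each probe set every drug animal lies above every stress animal, which is favoured by their choice through this same comparison and supports nothing further.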

How the data were processed

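The authors deposited log2 expression values per probe set of an Affymetrix rat Gene ST array, summarised by RMA (Affymetrix Expression Console 1.2), as the submitters' processing notes name it. Such values have no read depth, and the number of animals limits precision. No run date of an array was used here. Of 29214 probe sets, 15310 had 1 gene symbol, updated by gene number to RefSeq (GRCr8, used for names and promoters; 15279 matched). A gene's brightest probe set stood for it, and genes with a mean under the 25th percentile (7.165) were left out, leaving 10804.

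limma 3.58.1 in R 4.3.3 (eBayes with trend) fitted 1 mean per group over 12 animals (8 residual degrees of freedom), with the contrast of the mean of the 3 drugs minus stress and an F test among the drugs. A fit of 15 animals gave the difference from control. Tests were two-sided and adjusted by Benjamini-Hochberg over all genes, and a gene is called at an adjusted p under 0.05. The scripts were tested on simulated data. All adjusted p-values are limma's. Scores of lists average, for each animal, the members' values after subtracting each gene's mean.

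Members, lists and tests were chosen with earlier results of these data known. Named were the genes called and without overlap, filled to 10 per direction by smallest p without overlap, the 6 of smallest F p, 4 per direction against control, a panel of 25, and up to 4 members of smallest p per list. Klf4 falls outside this rule. Alternatives covered filter, scaling, weights, variance model, animals, drugs, control arrays, covariates and the replicate block.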

Additional observations from a re-analysis of the deposited data

Results flagged for a closer look

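Ttr in imipramine 2 was 8.09, against 7.52 in the next highest drug animal, a gap of 0.497 of the range of the 9. Klf4 in fluoxetine 1 was 7.39, against 7.51 in the next lowest drug animal, a gap of 0.494 of the range. Both lie just past the limit of 0.493, and of the 83 sets of values examined in this way chance alone flags about 1 in 20, so more than these 2 would be flagged by chance. Among the probe sets without a gene symbol, which the gene comparisons leave out, 25 passed in the 3 drugs minus stress at an adjusted p under 0.05 in limma.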

How the results depend on the processing

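For the 3 drugs pooled minus stress, the 1 called gene became 0 without imipramine animals, without tianeptine animals, with the choroid plexus score and with the vascular score. The count stayed at 1 without fluoxetine animals, became 26 over all probe sets, and ran from 0 to 1 with 1 animal left out. Replicate numbers are shared between groups in the labels. Same-numbered animals correlated between −0.166 and 0.292 in their deviations from the group means, and differently numbered animals of different groups between −0.333 and 0.273. The numbers were therefore not taken to pair animals. Fitted with the replicate number as a block, the count stayed at 1 and Dusp1 had an adjusted p of 0.00648, and the block moved no other count of calls by over 1.5 times (24 instead of 26 over all probe sets). Among the drugs, array weights gave 12 calls instead of 0. Against control the 0 calls became 2 at an adjusted p under 0.1, 3 with a further quantile normalisation, 3 with array weights, 460 with the repeat control arrays alone, and 0 to 2 with 1 animal left out. Over all probe sets, an analysis whose alternatives were chosen after seeing the data, the 26 calls became 16 with each distinct set of values counted once, 0 without tianeptine animals, 0 with the choroid plexus score, and 20 to 65 with 1 animal left out. The pooled difference changed sign for Ttr with the choroid plexus score (0.079) and for Dcx with the vascular score (0.043) or without stress 3 (−0.241 to 0.047 with 1 animal left out, the highest without stress 3), and the difference from control for Rpl39 (0.096) and H1f4 (0.030) with the first control arrays alone. Where Dusp1 lost its call the cause was not tested. Some of these fits hold fewer animals, while those with a marker score hold all 12. Precision rests on 3 animals per group.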
